A study of Mus musculus with 23 samples.

Results

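Transcripts of 6 genes that act downstream of CDK4 and CDK6, kinases that D-type cyclins activate, were followed in 23 mouse mammary carcinomas. They were the pocket-protein genes Rb1 and Rbl1, the transcription factor genes E2f1 and E2f2, and the E-type cyclin genes Ccne1 and Ccne2. They were chosen by name, with earlier results of these data known. They came from the 3826 genes of a targeted amplicon panel, in which 1 short stretch stands for each gene. All 6 were on the panel, and all 6 were among the 2925 genes that passed a filter on low counts.

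The tumours came from mice in which doxycycline induction began at 6 weeks of age, a treatment that both groups shared. Once tumours were established, mice were randomized to vehicle, which gave the 11 control tumours, or to abemaciclib, a small-molecule inhibitor of CDK4 and CDK6, at 90 mg/kg by gavage each day, which gave the 12 abemaciclib tumours. Tissue was frozen after 12 doses. The sources used here give neither the strain, the induced gene nor the age at the end of treatment, and they do not say whether any tumours shared an animal. The samples were whole pieces of tumour, so that fewer cells of a type and less RNA per cell cannot be told apart.

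As background, RB1 (encoded by Rb1) and p107 (encoded by Rbl1) are pocket proteins that bind E2F transcription factors and hold genes for DNA synthesis in check. Cyclin D with CDK4 or CDK6 phosphorylates the pocket proteins, which releases E2F. E2F1 and E2F2 are activating members of the family. Cyclins E1 and E2 partner CDK2, which adds further phosphates to the pocket proteins and drives entry into S phase. E2f1, Rbl1 and the E-type cyclin genes are themselves textbook E2F targets, whereas Rb1 is usually described as transcribed through much of the cell cycle.

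The 6 genes lie on 4 chromosomes of mm10 (GRCm38, positions from GENCODE M21). Rb1 (ENSMUSG00000022105.6) spans 73183673 to 73325822 on the minus strand of chromosome 14. Rbl1 (ENSMUSG00000027641.13) spans 157145893 to 157204534 and E2f1 (ENSMUSG00000027490.17) 154559407 to 154569892, both on the minus strand of chromosome 2. E2f2 (ENSMUSG00000018983.9) spans 136172394 to 136196057 and Ccne2 (ENSMUSG00000028212.16) 11191351 to 11204779, both on the plus strand of chromosome 4. Ccne1 (ENSMUSG00000002068.16) spans 38097984 to 38107534 on the minus strand of chromosome 7. The sources used here do not say which exon of each gene the amplicon covers.

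Promoter windows, 250 bases before to 50 bases after a transcript start, were read from RefSeq (GRCm38.p6) for Rbl1, E2f1, E2f2 and Ccne1. They were searched on both strands for 4 forms of the E2F recognition sequence, TTTCCCGC, TTTGGCGC, TTTCGCGC and TTTGCCGC, none of which overlapped another in these windows. Of the 4 genes, Rbl1 and E2f2 held 1 such match each, and they are shown because both genes lay lower in the abemaciclib group. A second window of E2f2, chr4:136180532-136180831, held none. The windows of Ccne1 and of E2f1, which lay lower as well, also held none. Each stretch below has 30 bases, 5′ to 3′ on the gene's own strand, with the matched letters in capitals.
Rbl1, chr2:157204534-157204563, minus strand: aagaaggcgatTTTCGCGCgctttgtcgcg
E2f2, chr4:136172294-136172323, plus strand: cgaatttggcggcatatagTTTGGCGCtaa
The match began 18 bases before the RefSeq start of Rbl1. In E2f2 it began at base 40 of the RefSeq transcript, a position that lies before the gene start in GENCODE M21. At least 1 of the 4 forms was found in 744 of 32851 windows genome-wide (2.26%) and in 136 of 3744 windows of panel genes (3.63%). Among 20 E2F target genes of DNA replication with a window, 8 held one. A match describes the letters only and is no evidence of binding. To give the context, the 250 bases before the Rbl1 start are printed in full, with the match in capitals.
Rbl1 upstream, chr2:157204535-157204784, minus strand: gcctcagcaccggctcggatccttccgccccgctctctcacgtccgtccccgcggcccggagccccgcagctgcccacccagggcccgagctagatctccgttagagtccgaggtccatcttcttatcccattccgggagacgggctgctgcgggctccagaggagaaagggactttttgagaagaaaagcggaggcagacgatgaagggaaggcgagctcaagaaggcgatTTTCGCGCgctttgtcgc
The window of E2f1 lay inside the gene as GENCODE M21 draws it, since RefSeq starts a transcript farther downstream. The bases before the GENCODE start of E2f1 were therefore not searched, and the lack of a match does not cover them.

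Libraries held 2756919 to 4990391 counts. Luminal epithelial cells of the mammary gland were represented by 13 markers, all with a median above 10 CPM (counts-per-million, scaled as described under processing), among them Epcam at 791 to 1756 CPM and Krt18 at 694 to 4138 CPM. Of the 9 T cell markers on the panel, summed levels were 16.9 to 72.8 CPM in control and 19.7 to 102 CPM in abemaciclib tumours. The 8 macrophage markers summed to 1468 to 3044 CPM in control and 1958 to 4623 CPM in abemaciclib tumours, all 8 with positive log2 fold changes, 5 of them at an unadjusted p under 0.05 by edgeR. The 5 markers of basal or myoepithelial cells were all positive too, at a median log2 fold change of 0.75 and none at that p, with sums of 818 to 5154 CPM in control tumours. Under abemaciclib those sums ran from 555 to 12777 CPM, the highest in tumour 3 and the next at 9054 CPM. Of 8 fibroblast markers 7 were positive, at a median of 0.38 and none at that p, with sums of 3278 to 8651 CPM and 1767 to 21571 CPM. Abemaciclib tumour 9 stood apart on the second principal component. It held the highest fibroblast sum, with the next abemaciclib tumour at 11021 CPM. Its luminal sum was the highest as well, at 12707 CPM, with the next abemaciclib tumour at 10720 CPM and control tumours at 6964 to 9955 CPM. Only these 2 abemaciclib tumours had a luminal sum above the control median, and 4 lay below every control tumour. The median luminal sum was 7789 CPM with the drug, the lowest being 6093 CPM, against a median of 8239 CPM with vehicle. Of the 13 luminal markers 8 had negative log2 fold changes, at a median of -0.03. On the first component abemaciclib tumours 1, 5, 7, 11 and 12 had scores of 19.1 to 29.4 at one end, and control tumour 8 (-24.9) and abemaciclib tumours 10 (-23.6) and 3 (-19.9) lay at the other. Abemaciclib tumours 3 and 10 were the highest on the third. The part of these features in the results was not tested.

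The comparison of abemaciclib with vehicle asked whether the transcripts of the RB, E2F and cyclin E module differed in established tumours. No member passed edgeR's quasi-likelihood test after Benjamini-Hochberg adjustment over all genes (0 of 6), and neither did any other gene (0%). Of the 6, 5 had a negative log2 fold change, against 48.9% of all genes. At an unadjusted p under 0.05, 4 of the 6 were lower with abemaciclib, Rbl1, E2f1, E2f2 and Ccne2, against 5.81% of all genes tested. None of the 6 was higher at that level, against 7.59% of all genes, which makes 4 of 6 against 13.4% in either direction. Because the 6 were chosen with earlier results of these data known, the shares in this paragraph are a description. Limma-voom with quality weights called 2 of the 6, E2f1 (adjusted p = 0.0318) and Ccne2 (adjusted p = 0.0192), as lower, against 2.39% of all genes called lower, 1.95% called higher and 4.34% in either direction. DESeq2's Wald test called 0 of 6, against 0.444% of genes called lower, 1.61% called higher and 2.05% in either direction. Without abemaciclib tumours 3 and 10, left out after seeing the data, edgeR called Rbl1 (-0.78, adjusted p = 0.0433) and Ccne2 (-1.36, adjusted p = 0.0236), against 2.09% of all genes called lower. Tumours 3 and 10 held the 2 highest Rbl1 values of the abemaciclib group, and tumour 10 its highest Ccne2 value. Leaving them out lowers that group by construction, so these 2 calls add no support. Leaving out control tumour 8 together with abemaciclib tumour 9, likewise after seeing the data, gave 0 of 6 called by edgeR, and 3 of the 6, not 4, kept an unadjusted p under 0.05. The gene lost was Rbl1, and the Rbl1 log2 fold change was then -0.41 (edgeR, unadjusted p = 0.0516). Rb1 and Ccne1 passed the adjusted threshold in none of these fits, and Ccne1 had an unadjusted p of 0.0366 by limma-voom.

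Rb1, the tumour suppressor on which the pathway converges, had values that overlapped between the groups over most of their range. It was at 388, 717 and 840 CPM (lowest, median and highest) in control tumours and at 416, 781 and 856 CPM in abemaciclib tumours. All but 1 of the abemaciclib values fell inside the control range. The lowest value of each group belonged to a tumour that stood apart on the principal components, control 8 and abemaciclib 9. Means were 681 ± 134 CPM (SD, n = 11) and 700.4 ± 145 CPM (SD, n = 12). EdgeR put the log2 fold change, abemaciclib minus control, at 0.04 with a SE of 0.131, a 95% interval from -0.23 to 0.31 and an adjusted p of 0.927. Its sign turned when library totals (-0.078) or the summed count of 7 housekeeping genes, most of it Actb (-0.023), set the scale. It also turned without control tumour 8 (-0.025).

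Rbl1, whose product p107 pairs with repressive E2Fs and is made mainly in cycling cells, lay lower with abemaciclib. Its values were 19.0, 29.7 and 58.1 CPM (lowest, median and highest) in control and 9.82, 22.5 and 38.5 CPM in abemaciclib tumours. Control tumours 5, 7 and 8 were the 3 highest of all, and abemaciclib tumours 7 and 9 the lowest, with the groups overlapping between these ends. Of the abemaciclib tumours, 10 of 12 lay under the control median and 3 under the lowest control tumour. Mean levels of 35.0 ± 13.4 CPM (SD, n = 11) and 23.3 ± 8.69 CPM (SD, n = 12) gave a fitted log2 difference of -0.58 with SE 0.219 and a 95% interval from -1.03 to -0.13 (edgeR, adjusted p = 0.213).

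The difference between the responses of the 2 pocket-protein genes was tested within tumours, as log2 CPM of Rbl1 minus that of Rb1. Amplicons of different genes need not amplify alike, so this quantity has meaning only when compared between groups. Its mean was -4.32 ± 0.665 (SD, n = 11) in control tumours against -4.94 ± 0.440 (SD, n = 12) under abemaciclib, a difference of -0.62 (two-sided permutation test, p = 0.00994, adjusted p = 0.0298 over the 3 contrasts tested). In 11 of 12 abemaciclib tumours it was under the median of the control group. The call was lost without any 1 of 7 tumours, with differences of -0.60 without control 5, -0.58 without control 7, -0.46 without control 8 and -0.61 without control 9, and -0.59 without abemaciclib 1, -0.59 without abemaciclib 9 and -0.58 without abemaciclib 11 (adjusted p = 0.0502 to 0.0703 over these 7, permutation tests).

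**Figure D1:**
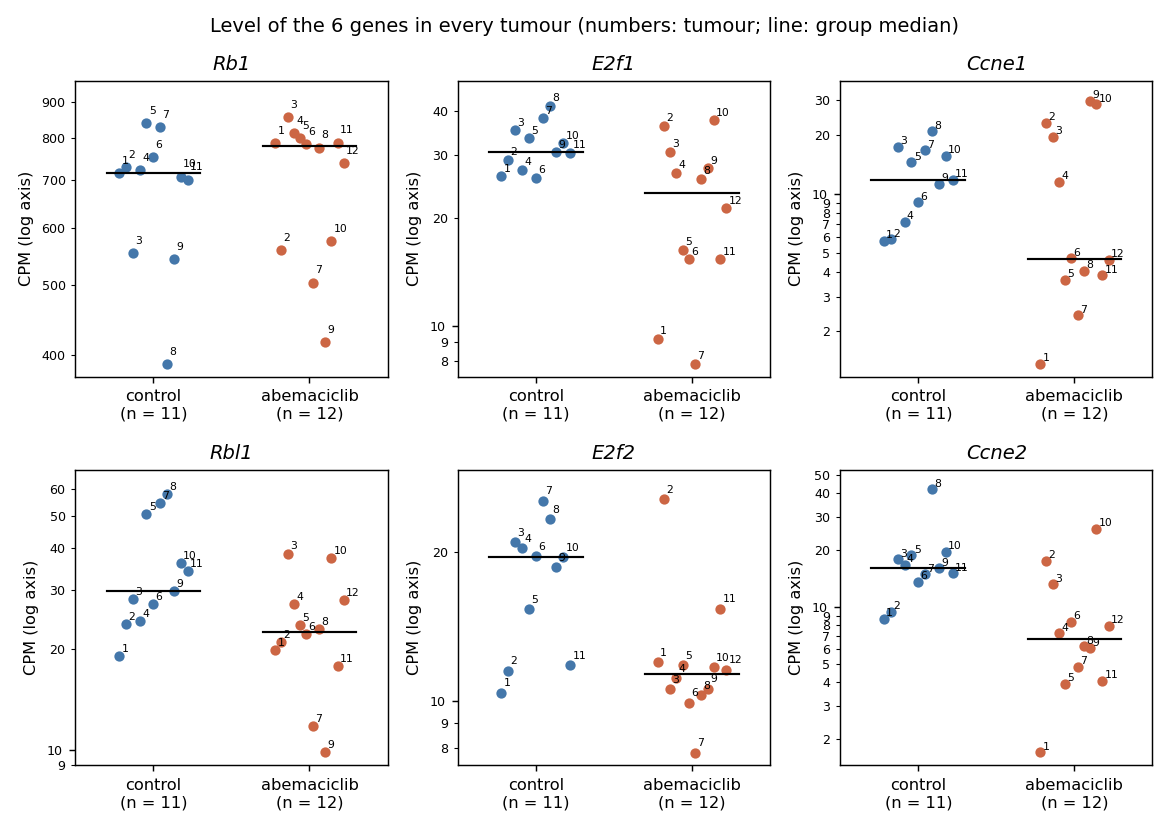
Level of each gene in CPM (log axis, scaled separately for each gene) in the 11 control and 12 abemaciclib tumours, with 1 numbered point per tumour and a line at the group median. The abemaciclib median lies below the control median for 5 genes and above it for Rb1, and abemaciclib tumours 2, 3, 9 and 10 have the 4 highest Ccne1 values of their group.

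E2f1, an activating E2F, showed a narrow range in control tumours and a wide one under abemaciclib. Control values were 26.0, 30.6 and 41.2 CPM (lowest, median and highest), and abemaciclib values 7.84, 23.5 and 37.6 CPM. Of the abemaciclib tumours, 7 of 12 lay below every control tumour, with tumours 1 and 7 the lowest at 9.22 and 7.84 CPM. Tumours 2, 3 and 10 instead lay at 36.3, 30.6 and 37.6 CPM, above the control median. On the log2 scale the SD was 0.213 in control and 0.713 in abemaciclib tumours, a difference in spread that was not tested. The group means, 31.8 ± 4.88 CPM (SD, n = 11) and 22.5 ± 9.88 CPM (SD, n = 12), corresponded to -0.50 on the log2 scale, with SE 0.209 and a 95% interval from -0.93 to -0.06 (edgeR, adjusted p = 0.280). Limma-voom with quality weights put it at -0.68.

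E2f2, the other activating E2F on the list, varied less within the abemaciclib group than E2f1. It was at 10.4, 19.6 and 25.4 CPM (lowest, median and highest) in control and at 7.84, 11.3 and 25.6 CPM in abemaciclib tumours. Abemaciclib tumour 2 had the highest value of all 23, while the other 11 lay at 15.4 CPM or less, all below the control median. Control tumours 1, 2, 5 and 11 lay in that same low range, so that the groups overlapped. From means of 17.9 ± 5.00 CPM (SD, n = 11) and 12.4 ± 4.53 CPM (SD, n = 12), the log2 difference was fitted as -0.53 with SE 0.188 and a 95% interval from -0.92 to -0.15 (edgeR, adjusted p = 0.190). Without abemaciclib tumour 2 it was -0.68 (adjusted p = 0.0369), a fit in which 0.412% of genes were called lower. The 22 other fits that left out 1 tumour did not call E2f2 (edgeR, adjusted p = 0.130 to 0.299).

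The 9 abemaciclib tumours below the control median for E2f1 were also below it for E2f2. Tumours 3 and 10 lay above the control median for E2f1 and below it for E2f2. E2f2 minus E2f1, in log2 CPM, was -0.85 ± 0.352 (SD, n = 11) in control tumours against -0.76 ± 0.659 (SD, n = 12) under abemaciclib, a difference of 0.10 (permutation test, p = 0.665, adjusted p = 0.665). Leaving out abemaciclib tumour 1 turned that difference to -0.0038 (adjusted p = 0.985, permutation test).

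Ccne1, which encodes cyclin E1, had nearly equal group means in CPM and a very different distribution. Its control values ran from 5.77 through a median of 11.8 to 20.8 CPM, and its abemaciclib values from 1.37 through 4.66 to 29.8 CPM. Of the abemaciclib tumours, 7 of 12 lay below every control tumour and 3 lay above every control tumour, namely 2, 9 and 10 at 23.1, 29.8 and 28.7 CPM. Tumour 3, at 19.5 CPM, and tumour 4, at 11.5 CPM, fell within the control range. The SD on the log2 scale was 0.617 in control and 1.40 in abemaciclib tumours, again a spread that was not tested. With means of 12.4 ± 5.06 CPM (SD, n = 11) and 11.4 ± 10.8 CPM (SD, n = 12), edgeR gave a log2 value of -0.11 with SE 0.429 and a 95% interval from -1.0 to 0.77 (adjusted p = 0.943). Leaving out single tumours moved it between -0.33, without abemaciclib tumour 9 or 10, and -0.0074, without abemaciclib tumour 1. Limma-voom with quality weights, which averages on the log2 scale and gives divergent libraries less weight, put it at -0.80 (adjusted p = 0.238). The mean of log2 CPM without any weights was 3.57 in control and 2.98 in abemaciclib tumours. Counts were 20 to 99 per control tumour and 4 to 125 per abemaciclib tumour, so that the lowest values rest on few reads.

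Ccne2, which encodes cyclin E2, had the most negative log2 fold change of the 6 genes. It was at 8.65, 16.1 and 41.9 CPM (lowest, median and highest) in control and at 1.71, 6.74 and 25.9 CPM in abemaciclib tumours. Of the abemaciclib tumours, 9 of 12 lay below every control tumour, while 2, 3 and 10 lay inside the control range at 17.5, 13.2 and 25.9 CPM. Control tumour 8 stood above all others, its nearest neighbour among control tumours being at 19.6 CPM. Counts were 30 to 199 per control tumour and 5 to 113 per abemaciclib tumour, so that the lowest values of Ccne2 also rest on few reads. Means of 17.5 ± 8.79 CPM (SD, n = 11) against 8.92 ± 6.86 CPM (SD, n = 12) gave -0.96 with SE 0.334 and a 95% interval from -1.65 to -0.27 (edgeR, adjusted p = 0.185). The value was -1.23 (adjusted p = 0.0486) without abemaciclib tumour 10, where 0.89% of genes were called lower, and -0.70 (adjusted p = 0.350) without abemaciclib tumour 9 and control tumour 8, left out after seeing the data. The 22 other fits that left out 1 tumour did not call Ccne2 (edgeR, adjusted p = 0.0900 to 0.328).

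The 2 cyclin E genes parted most clearly in abemaciclib tumour 9, which had the highest Ccne1 of all 23 tumours and Ccne2 at 6.04 CPM, below every control tumour. Ccne2 minus Ccne1, in log2 CPM, averaged 0.48 ± 0.377 (SD, n = 11) in control tumours against -0.05 ± 0.853 (SD, n = 12) under abemaciclib, a difference of -0.53 (permutation test, p = 0.0605, adjusted p = 0.0907). The within-tumour value was -2.21 in abemaciclib tumour 9, with the next lowest at -0.63. Without that tumour the difference was -0.33 (adjusted p = 0.165, permutation test). It passed the threshold without abemaciclib tumour 6 (-0.60, adjusted p = 0.0461), 7 (-0.61, adjusted p = 0.0389) or 12 (-0.60, adjusted p = 0.050) by the same permutation test. A larger response of Ccne2 than of Ccne1 was therefore not established by this test.

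**Figure D2:**
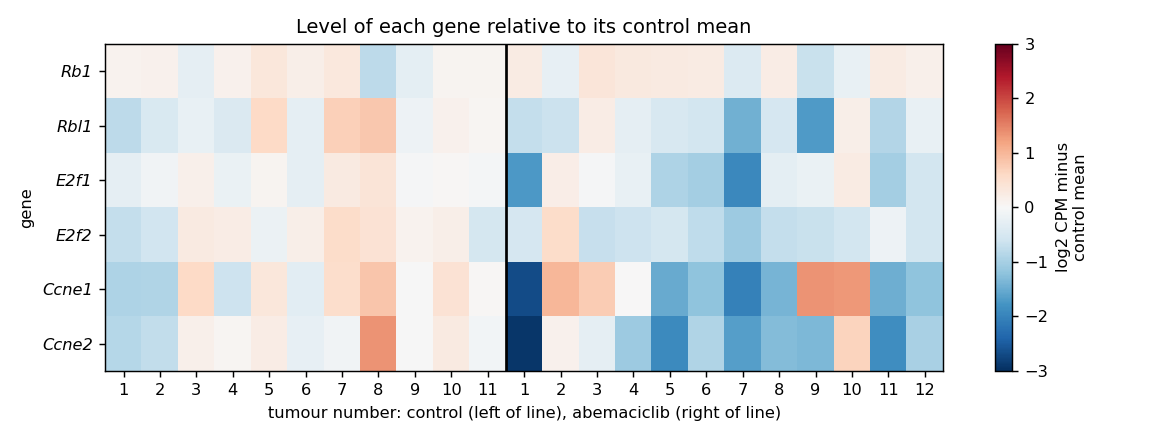
Level of the 6 genes (rows) in each tumour (columns, control left and abemaciclib right of the line), as log2 CPM minus the mean of the control tumours, from -3 (blue) to 3 (red). Abemaciclib tumours 1, 5, 6, 7, 8, 11 and 12 are blue for Rbl1, both E2f and both Ccne genes, and abemaciclib tumour 9 is red for Ccne1 only.

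Setting the genes side by side within each tumour, Rb1 aside, 8 of 12 abemaciclib tumours lay below the control median for all 5 genes. These were tumours 1, 4, 5, 6, 7, 8, 11 and 12, and tumour 7 lay below every control tumour for all 5. The same counts were not made over all genes tested, so these are a description of the tumours. Tumours 2 and 10 lay above the control median for 4 of the 5, tumour 3 for 3 and tumour 9 for 1. Levels of Mki67, a marker of dividing cells, were 77.2, 73.9, 71.8 and 109 CPM in tumours 2, 3, 9 and 10 and 9.04 to 43.4 CPM in the other 8 abemaciclib tumours, against 35.8 to 151 CPM in control. These 4 tumours were picked out after their values were seen, so the Mki67 levels are a description, with no test.

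Covariation between members was measured within each group, over the 15 pairs of genes in log2 CPM, with permutation tests adjusted over all 30 correlations. In control tumours 6 of 15 pairs passed, and in abemaciclib tumours 3 of 15. E2f1, Ccne1 and Ccne2 were correlated with each other in both groups. For E2f1 with Ccne1, Pearson's r was 0.882 in control (n = 11, permutation p = 4.80e-04, adjusted p = 0.00480, Spearman's rho 0.909 with permutation p = 3.10e-04) and 0.873 in abemaciclib tumours (n = 12, permutation p = 1.90e-04, adjusted p = 0.00480, rho 0.888 with permutation p = 3.20e-04). For E2f1 with Ccne2 it was 0.737 (permutation p = 0.00729, adjusted p = 0.0243, rho 0.673 with p = 0.0283) and 0.798 (permutation p = 0.00165, adjusted p = 0.00771, rho 0.769 with p = 0.00509). For Ccne1 with Ccne2 it was 0.802 (permutation p = 4.40e-04, adjusted p = 0.00480, rho 0.745 with p = 0.0109) and 0.799 (permutation p = 0.00124, adjusted p = 0.00744, rho 0.762 with p = 0.00567). The 3 pairs had r of 0.850, 0.656 and 0.607 in control and 0.847, 0.789 and 0.898 in abemaciclib tumours once the 2 tumours farthest from the median of the first gene were left out. With those fewer tumours, and after adjustment over the 30 trimmed correlations, Ccne1 with Ccne2 in abemaciclib tumours was the 1 pair that still passed. By rho, E2f1 with Ccne2 in control tumours missed the threshold (adjusted permutation p = 0.0850), as did Rbl1 with Ccne2 (adjusted permutation p = 0.0816).

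Rbl1 correlated with E2f1 (r = 0.852, permutation p = 0.00116, adjusted p = 0.00744, rho 0.836 with p = 0.00231), Ccne1 (r = 0.837, permutation p = 0.00180, adjusted p = 0.00771, rho 0.855 with p = 0.00144) and Ccne2 (r = 0.731, permutation p = 0.00574, adjusted p = 0.0215, rho 0.682 with p = 0.0245) in control tumours. Without control tumours 7 and 8 these r were 0.676, 0.762 and 0.745. In abemaciclib tumours the same pairs had r of 0.479, 0.212 and 0.512 and did not pass (adjusted permutation p = 0.202, 0.587 and 0.165). Without abemaciclib tumours 7 and 9 these 3 values were 0.631, 0.663 and 0.655, and the difference between groups was not tested. E2f2 passed with no other member in either group, at r of 0.547 to 0.672 in control and 0.116 to 0.412 in abemaciclib tumours, leaving Rb1 aside. Rb1 also passed with none. Its r with Ccne2 in control tumours, -0.668 (permutation p = 0.0407, adjusted p = 0.0939), was -0.079 without control tumours 8 and 9 and so rested on those. Scaling by library totals gave 10 and 7 passing pairs in control and abemaciclib tumours; 1 scaling factor is shared by both genes of a pair, and its part was not tested.

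**Figure D3:**
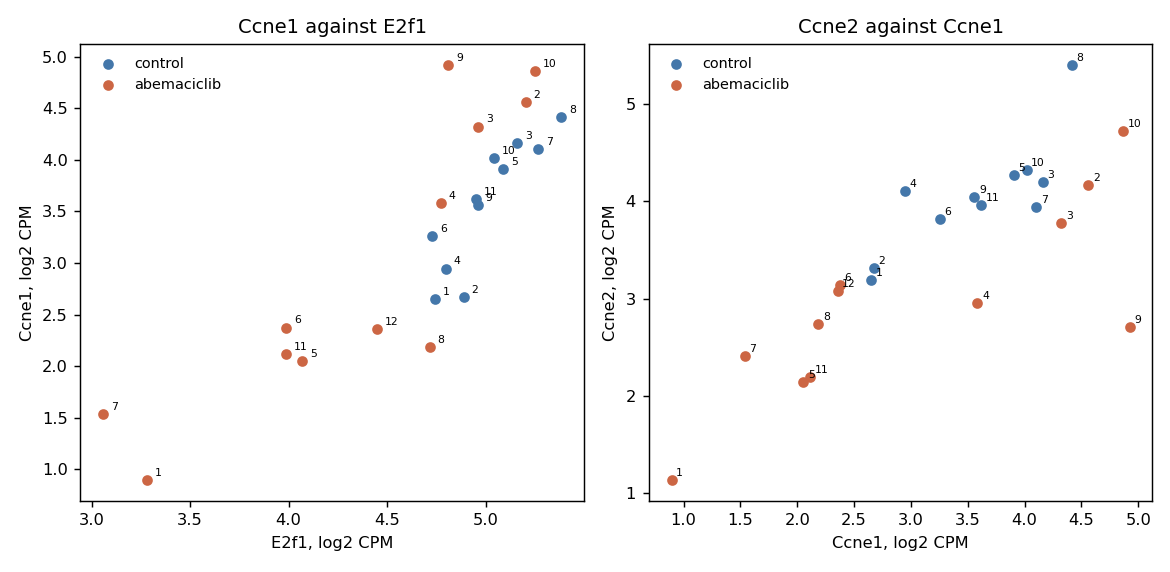
Log2 CPM of Ccne1 against E2f1 (left) and of Ccne2 against Ccne1 (right), 1 numbered point per tumour, control in blue and abemaciclib in orange. Abemaciclib tumours 1 and 7 lie at the low end of both plots, and abemaciclib tumour 9 lies below the other tumours of similar Ccne1 in the right plot.

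The genes whose levels ran most nearly in parallel with each member were ranked among 2919 other tested genes by Pearson's r of log2 CPM over the 23 tumours, each centred on its group mean, and the values are given as a description. E2f1 was nearest to Top2a (r = 0.917), Mki67 (0.909) and Ccna2 (0.905), which encode topoisomerase 2-alpha, Ki-67 and cyclin A2. Ccne2 was nearest to the spindle gene Nusap1 (0.934), the replicative helicase gene Mcm4 (0.926) and the cyclin B1 gene Ccnb1 (0.916). Ccne1 was nearest to Stmn1 (0.933), a regulator of microtubules, Ube2c (0.933), a ubiquitin-conjugating enzyme of mitosis, and Tmeff1 (0.930), a transmembrane protein. By edgeR the log2 fold change of Tmeff1 was 0.04, and that of Ccne1 was -0.11 with its wide interval from -1.0 to 0.77. Limma-voom put Ccne1 at -0.80. Rbl1 was nearest to Rrs1 (0.863), a ribosome biogenesis factor, Hn1 (0.823) and Gmnn (0.807), the replication licensing inhibitor geminin.

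For E2f2 the closest genes were Parp1 (0.722), a sensor of DNA breaks, the nucleolar gene Npm1 (0.677) and Pold2 (0.628), a subunit of DNA polymerase delta, all lower values than for the genes above. Rb1 was nearest to Derl2 (0.765), a factor of protein export from the endoplasmic reticulum, the peptidase gene Anpep (0.755) and Ppap2b (0.735), a lipid phosphatase. With Mki67 itself, r was 0.927 for Ccne1, 0.909 for E2f1, 0.842 for Ccne2, 0.502 for Rbl1, 0.377 for E2f2 and -0.306 for Rb1.

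Other genes of the pathway were taken from lists, leaving out the 6 members. The lists too were chosen with earlier results of these data known, so their counts are a description. Over all 2919 other genes tested, 1424 were negative and the median log2 fold change was 0.0061. Of those 2919, 166 were lower and 222 higher at an unadjusted p under 0.05 by edgeR, limma-voom called 68 lower and 57 higher, and DESeq2 called 13 lower and 47 higher. None of the genes in these lists passed edgeR's adjusted threshold. The 7 tested RB and E2F factors were all negative, with a median of -0.23, and 1, E2f4, had an unadjusted p under 0.05. E2f4, a repressive E2F, averaged 55.2 ± 11.0 CPM without and 46.9 ± 4.74 CPM with the drug, or -0.23 (SE 0.103) in log2. Tfdp1, the DNA-binding partner of E2Fs, lay at -0.33 (SE 0.167). E2f3, a further activating E2F, lay at -0.50 (SE 0.266) from only 4.31 ± 1.36 CPM in control tumours.

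Of the 10 tested genes of CDK2, cyclin A and cyclin E turnover, 9 were negative with a median of -0.24, and 4 had an unadjusted p under 0.05, all lower. The cyclin A2 gene Ccna2, which follows cyclin E as a partner of CDK2, averaged 169 ± 98.4 CPM without and 67.4 ± 61.3 CPM with the drug, or -1.32 (SE 0.423) in log2 (edgeR, adjusted p = 0.146). Cks2, a CDK-binding subunit, was at -0.81 (SE 0.269), and Skp2, which targets the CDK inhibitor p27 and free cyclin E for degradation, at -0.72 (SE 0.273). Limma-voom with quality weights called these 3 and no other gene of the list. Each was under the control median in 9 or 10 of the 12 treated tumours.

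Among the 12 genes of CDK4, CDK6, D-type cyclins and CDK inhibitors, 8 were negative with a median of -0.15, 3 had an unadjusted p under 0.05 in the lower direction and 1 in the higher. The drug's targets were at -0.14 (SE 0.222) for Cdk4 and 0.06 (SE 0.206) for Cdk6. The Cdk6 log2 fold change was negative instead at -0.0407 with library totals and -0.10 with housekeeping scaling. The INK4 genes Cdkn2c at -1.25 (SE 0.260, adjusted p = 0.0574 by edgeR) and Cdkn2d at -0.52 (SE 0.190), both encoding inhibitors of CDK4 and CDK6, had 2 of the 3 smallest p. The third was Cdkn1b at -0.43 (SE 0.150), which encodes the CDK2 inhibitor p27. The 1 gene in the higher direction was Ccnd2, which encodes cyclin D2, at 0.91 (SE 0.351, adjusted p = 0.218 by edgeR), above the control median in 11 of 12 treated tumours and named after its value was seen. DESeq2 called Cdkn2c alone in this list, and limma-voom Cdkn2c and Cdkn2d.

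The 23 tested E2F targets of DNA replication were all negative, with a median of -0.55, and 15 had an unadjusted p under 0.05, against the 166 of 2919 genes lower at that level. Cdc6, which loads the replicative helicase, averaged 11.5 ± 3.76 CPM without and 4.99 ± 3.71 CPM with the drug, or -1.19 (SE 0.324) in log2 (edgeR, adjusted p = 0.0912). The origin-firing kinase Cdc7 was at -0.95 (SE 0.279) and Rpa3, part of the trimer that coats unwound DNA strands, at -0.70 (SE 0.211). Limma-voom called 8 of the 23 as lower and DESeq2 1, which was Cdc6. E2f1, E2f2 and Rbl1, at -0.50 to -0.58, lay near the median of these targets, and Ccne2, at -0.96, lay next to Cdc7.

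The 24 tested G2/M genes were also all negative, at a median of -1.03, with 23 below an unadjusted p of 0.05 by edgeR. Limma-voom called 23 of the 24 as lower and DESeq2 2, which were Smc4 and Bub1b. Smc4, which helps to compact chromosomes, lay at -0.84 (SE 0.181, edgeR adjusted p = 0.0578). The checkpoint kinase gene Bub1b lay at -1.27 (SE 0.373), and Cdc25c, whose product switches on CDK1, at -1.38 (SE 0.409). Mki67 averaged 90.0 ± 32.2 CPM in control and 43.6 ± 32.0 CPM under the drug, or -1.04 (SE 0.339) in log2. RB co-repressors and chromatin partners were negative in 10 of 11 tested genes with a median of -0.18, and 4 had an unadjusted p under 0.05. The 3 with the smallest p were the deacetylase gene Hdac1 at -0.37 (SE 0.142) and the heterochromatin protein genes Cbx5 at -0.40 (SE 0.161) and Cbx3 at -0.27 (SE 0.123), and the fourth was the histone methyltransferase gene Suv39h1 at -0.39 (SE 0.187), named after its value was seen. The 7 housekeeping genes had a median of -0.02.

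**Figure D4:**
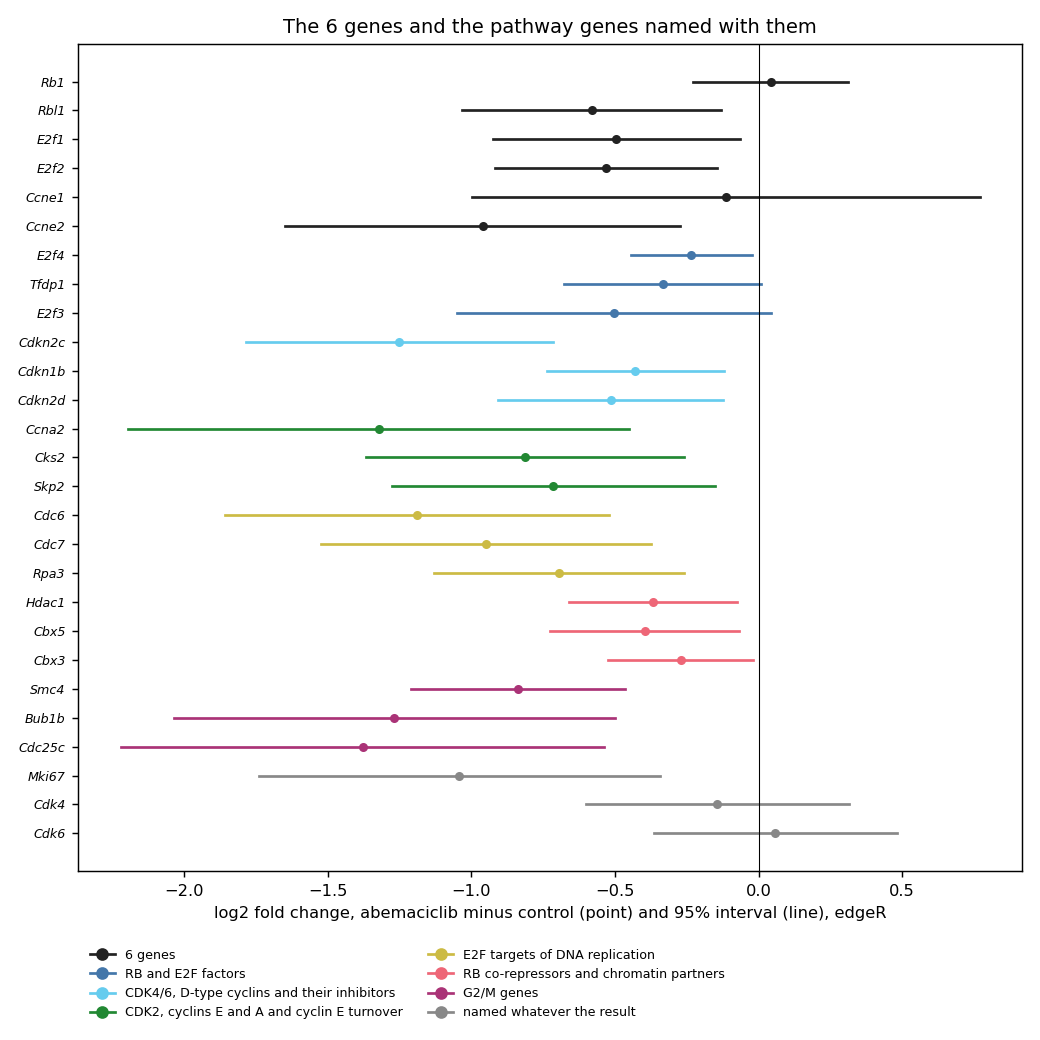
Log2 fold change, abemaciclib minus control, with its 95% interval from edgeR, for the 6 genes (black) and the pathway genes named with them (colours by list, with Mki67, Cdk4 and Cdk6 in grey). The intervals of Rbl1, E2f1, E2f2 and Ccne2 lie below 0 before adjustment for the number of genes, and those of Rb1 and Ccne1 span it.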

How the data were processed

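The deposited table gives, for each tumour, raw counts for every gene of the panel, without normalization. Per the labels, libraries were made with a custom Ion AmpliSeq panel. The submitters' processing notes name mm10 as the build, and no source used here names an aligner or counting program. Amplicon reads carry no molecular identifiers, so a count of reads is not a count of molecules. The SEs and intervals from edgeR include the variation fitted between tumours. Labels do not say whether tumours came from separate animals, so p-values measure the spread between these tumours.

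Counts were fitted in R 4.3.3 with edgeR 4.0.16 on the whole table (filterByExpr, TMM scaling, glmQLFit and glmQLFTest, two-sided, Benjamini-Hochberg adjustment, threshold 0.05). The filter set 901 genes aside, and the biological coefficient of variation was 32.6%. CPM use TMM-scaled totals. Contrasts and correlations used log2 CPM with a prior count of 2 and 100000 resamples. In 253 pairwise comparisons chi-square was at least 19 times its degrees of freedom, so no library was a copy. The fit was tested on simulated counts. Alternatives were other scalings (DESeq2 size factors, library totals, upper quartile, 7 housekeeping genes), other filters, DESeq2 1.42.0, limma 3.58.1 with voom quality weights, other prior counts, the replicate number as a block and leaving out each tumour. Housekeeping scaling used the summed count of the 7 genes, most of it Actb. Actb averaged 27461 CPM in control tumours, and Ppia, the next highest, 3721 CPM. The members, lists and named genes (up to 3 per list by smallest p, 3 nearest per member) were chosen with earlier results of these data known.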

Additional observations from a re-analysis of the deposited data

How the results depend on the processing

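Of the 6 genes, all but Rb1 kept a negative log2 fold change under every alternative that tested them, and Ccne1 was not tested at a mean count of at least 50. Rb1 turned to -0.078 with library totals and -0.023 with housekeeping scaling, and ranged from -0.025 to 0.094 over fits without 1 tumour. The Cdk6 log2 fold change turned to -0.0407 with library totals, -0.10 with housekeeping scaling and -0.042 by limma-voom, ranged from -0.037 to 0.13 without 1 tumour, and was -0.12 without abemaciclib 3 and 10 and -0.033 without abemaciclib 9 and control 8. Library totals moved the median of all genes to -0.119. Genes called numbered 1 with library totals, 60 by DESeq2, 127 by limma-voom, 93 without abemaciclib 3 and 10, 2 without abemaciclib 9 and control 8, and 0 to 47 without 1 tumour. E2f1 passed by limma-voom (-0.68), Ccne2 by limma-voom (-1.13) and without abemaciclib 3 and 10 (-1.36), and Rbl1 without those (-0.78). Abemaciclib 3 and 10 held the 2 highest Rbl1 values of their group, and abemaciclib 10 its highest Ccne2 value. Without 1 tumour, E2f2 ranged from -0.68 to -0.47 and Ccne2 from -1.23 to -0.75. Likewise, Rbl1 minus Rb1 ranged from -0.72 to -0.46, E2f2 minus E2f1 from -0.0038 to 0.18, and Ccne2 minus Ccne1 from -0.61 to -0.33. Ccne2 minus Ccne1 passed with a prior count of 10 (-0.50).

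With the tumour number as a replicate block, Rbl1 minus Rb1 was -0.65 over 11 pairs and lost its call (exact sign-flip permutation test, adjusted p = 0.0879), and Ccne1 was at -0.49. The block called 0 genes, as without it. Same-numbered tumours had correlations of -0.428 to 0.453 in their deviations, over 0.1 in 5 of 11 pairs. Of the control tumours, 2 of 11 correlated best with their own number. Such correlations cannot settle whether the numbers pair the tumours, since tumours that share an animal or batch need not have like levels.

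Pairs of members that passed numbered 10 in control and 7 in abemaciclib tumours with library totals, and 0 and 1 without the 2 tumours farthest from the median, where fewer tumours entered. With library totals r turned to 0.175 for Rb1 with Rbl1 in control, and in abemaciclib tumours to 0.295 for Rb1 with E2f1, 0.206 with E2f2 and 0.193 with Ccne2. Without the farthest 2, r was 0.496 for Rb1 with Rbl1 in control, and in abemaciclib tumours -0.100 for Rb1 with Rbl1, -0.395 for Rbl1 with E2f2, -0.295 for E2f2 with Ccne1 and -0.322 for E2f2 with Ccne2. The cause of these changes was not tested.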

Other observations

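The genes that ran most strongly opposite to each member over the 23 tumours, centred on their group means, were named after their values were seen and are given as a description. Ccne1 had its most negative r with Isoc1 (-0.933), as far from 0 as its highest positive value. For Ccne2 it was Os9 (-0.883), for E2f1 Adck3 (-0.868), for Rbl1 Bckdha (-0.845) and for E2f2 Lats2 (-0.669), a kinase of the Hippo pathway. Rb1 had a stronger negative value, -0.849 with the Polycomb gene Pcgf2, than its highest positive value of 0.765.

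In each group the tumour with the lowest Rb1 was also the highest for an E-type cyclin. Control tumour 8, at 388 CPM for Rb1, was the highest of its group for Rbl1, E2f1, Ccne1 and Ccne2, and abemaciclib tumour 9, at 416 CPM for Rb1, had the highest Ccne1 and the lowest Rbl1 of all 23 tumours. These were 2 tumours, picked out after their values were seen.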
